A study of Mus musculus with 2 samples.

Results

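Acid-base transporters and the vesicular proton pump were followed through 69 gene rows, those whose symbols begin with Slc4a, Slc9a, Slc16a, Slc26a or Atp6v, out of 23394 genes in the taste table and 23392 in the ganglion table. They comprised 11 Slc4a, 11 Slc9a, 14 Slc16a, 10 Slc26a and 23 Atp6v rows. The choice by symbol also takes in Slc4a1ap, which encodes an adaptor named kanadaptin, the scaffold genes Slc9a3r1 and Slc9a3r2, and the pseudogene Atp6v0c-ps2. All groups were C57BL/6 mice. Tongue epithelium came from Pkd2l1-tdTomato animals, in which Pkd2l1, a marker of sour taste receptor cells, drives a red protein. Cells carrying it were sorted as sour pools (n = 2) or as single sour cells, and cells lacking it as control pools (n = 4), with 50 to 100 cells per pool. Pools are numbered in the order of the labels, which list 12, so the control pools used here are 1, 2, 4 and 6. The control pools hold non-sour taste cells together with supporting cells, and keratinocyte markers in them far exceeded markers of other taste cells. Geniculate ganglion neurons, which carry taste from the tongue toward the brain, were tdTomato-positive cells picked by hand from P2rx3-tdTomato animals. The labels state neither age, sex nor treatment, and do not say which pools came from separate animals, so p-values measure the spread between these pools, which may be technical.

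The V-ATPase is a rotary pump that uses ATP to move protons into endosomes, lysosomes and synaptic vesicles, or out of some acid-secreting cells. Its V1 part (subunits A to H) binds ATP, and its V0 part (subunits a, b, c, d and e) carries protons through the membrane. Several subunits are encoded by paralogs with their own tissue distributions. The Slc4a family moves bicarbonate, the Slc9a family exchanges sodium or potassium for protons, the Slc16a family includes proton-coupled monocarboxylate carriers, and the Slc26a family exchanges anions such as sulfate, chloride and bicarbonate.

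Promoters of 4 pump genes are shown. Atp6v0e and Atp6v0e2 are the paralog pair whose balance differed most between pools, Atp6v1a encodes the catalytic subunit, and Atp6v0b was among the most stable calls. The sequences are RefSeq windows (GRCm38.p6) from 250 bases before to 50 after the RefSeq start, on the coding strand, with CACGTG in capitals. This palindrome is the core of an E-box, a motif bound by basic helix-loop-helix proteins.
Atp6v0e, chr17:26676146-26676445, plus strand: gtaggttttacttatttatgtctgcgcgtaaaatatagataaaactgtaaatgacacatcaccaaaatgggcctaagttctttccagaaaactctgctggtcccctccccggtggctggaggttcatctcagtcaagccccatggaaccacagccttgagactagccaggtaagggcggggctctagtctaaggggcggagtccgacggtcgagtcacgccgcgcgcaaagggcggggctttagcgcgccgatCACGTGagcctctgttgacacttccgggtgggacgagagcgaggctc
Atp6v0e2, chr6:48537319-48537618, plus strand: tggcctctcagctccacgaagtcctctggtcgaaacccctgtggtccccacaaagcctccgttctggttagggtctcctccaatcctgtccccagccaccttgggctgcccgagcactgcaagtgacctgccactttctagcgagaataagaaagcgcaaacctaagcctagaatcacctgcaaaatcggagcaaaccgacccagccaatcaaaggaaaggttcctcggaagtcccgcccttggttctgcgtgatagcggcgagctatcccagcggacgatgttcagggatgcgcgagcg
Atp6v1a, chr16:44139210-44139509, minus strand: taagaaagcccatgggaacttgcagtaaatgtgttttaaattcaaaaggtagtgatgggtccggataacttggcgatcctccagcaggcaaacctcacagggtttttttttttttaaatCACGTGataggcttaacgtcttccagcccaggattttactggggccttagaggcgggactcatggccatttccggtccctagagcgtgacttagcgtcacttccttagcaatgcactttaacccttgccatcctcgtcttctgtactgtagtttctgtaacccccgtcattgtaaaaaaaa
Atp6v0b, chr4:117887280-117887579, minus strand: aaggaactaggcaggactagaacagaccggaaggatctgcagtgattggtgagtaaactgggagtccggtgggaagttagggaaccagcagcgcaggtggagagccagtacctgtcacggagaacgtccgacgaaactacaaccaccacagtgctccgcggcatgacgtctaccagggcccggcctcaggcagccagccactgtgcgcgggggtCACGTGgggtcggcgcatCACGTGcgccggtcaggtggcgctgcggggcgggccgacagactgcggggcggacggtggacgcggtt

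At least 1 RefSeq window was used for 47 of the 69 members. A gene with several windows counted once, with a match in any of them. CACGTG, which reads the same on both strands, lay in a window of 8 of these 47 genes (17%). It lay in a window of 2187 of all 27025 genes with a window of this length (8.09%). Of the 16 V-ATPase genes with a window, 4 held it (25%), namely Atp6v0b, Atp6v0d1, Atp6v0e and Atp6v1a. The window of Atp6v0e2 had no match in these letters. Presence of the motif was not compared with the changes in pools.

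Library quality set the frame for the pools. Gene reads ranged from 188503 to 680954 per pool. Sour pools carried 2557 to 5129 CPM (reads per 1000000 gene reads) of Pkd2l1 against at most 14.5 in control pools, and keratinocyte markers (8 genes) summed to 1642 to 2276 CPM in sour pools against 72601 to 94154 in control pools. Markers of myeloid cells (11 genes) summed to 4296 CPM in sour pool 1, with 10 of the genes read, to 5.31 CPM in sour pool 2, with 1 gene read, and to 2.94, 827, 16.0 and 52.4 CPM in control pools 1, 2, 4 and 6. The part of these myeloid and keratinocyte reads in the member differences was not tested. In pools, fewer cells of a type and less RNA per cell cannot be told apart.

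Proton pump genes were higher in sour pools. Summed over the 23 Atp6v rows, sour pools 1 and 2 held 4219 and 4477 CPM, and control pools 1, 2, 4 and 6 held 1518, 1278, 1566 and 1539 CPM. The groups did not overlap, and the means were 4348 ± 183 (SD, n = 2) and 1475 ± 133 CPM (SD, n = 4), a 2.95-fold difference. Of 14 Atp6v genes with enough reads to test, 8 rose in sour pools, none fell and 6 had no call, where a call needed an edgeR quasi-likelihood adjusted p under 0.05 and at least a 2-fold change. The other transporter families had 17 genes tested, of which 5 rose, 3 fell and 9 had no call.

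Across all 31 members tested, 13 (41.9%) were called higher and 3 (9.68%) lower. Of all 7739 genes tested, 15.0% were called higher and 14.4% lower. The median log2 change was 0.92 over the members and -0.01 over all genes. Another 20 members had no read in any pool and 18 had reads but too few to test.

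Atp6v0e2 (ENSMUSG00000039347, chromosome 6, 48537615 to 48541801, plus strand, GRCm38) encodes a paralog of the small V0 subunit e. It had 675 and 1019 CPM in sour pools 1 and 2, and 1.47, 13.1, 5.35 and 2.91 CPM in control pools 1, 2, 4 and 6. Every sour pool stood far above every control pool, and the control levels rested on 1 to 5 reads each. The mean was 148-fold higher in sour pools (log2 change 7.23 ± 0.51 SE, edgeR adjusted p = 3.2e-07). The control mean rests on 9 reads, 5 of them in control pool 2, and the log2 change was 8.01 without that pool, with a range of 6.73 to 8.01 over the alternatives. Its paralog Atp6v0e (chromosome 17, 26663231 to 26699647) had 335 and 504 CPM in sour pools against 292, 249, 409 and 291 CPM in control pools. Those groups overlapped, and Atp6v0e had no call (log2 change 0.40 ± 0.33, edgeR adjusted p = 0.42).

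Because the level of this paralog pair moved so unequally, its composition differed between pools. Per kilobase of exon, Atp6v0e2 made up 75.9% of subunit e reads in sour pool 1 and 75.9% in sour pool 2. It made up 0.777%, 7.58%, 1.997% and 1.54% in control pools 1, 2, 4 and 6. The shares of the 2 sour pools therefore lay close together and above every control pool.

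The V1 motor subunits were next. Atp6v1b2 (chromosome 8, 69088646 to 69113711), which encodes the B subunit of V1, had 605 and 647 CPM in sour pools and 110, 81.4, 72.2 and 116 CPM in control pools. The groups were far apart, with a 6.59-fold difference of means (log2 change 2.68 ± 0.32 SE, edgeR adjusted p = 2.6e-05). Its paralog Atp6v1b1, known from acid-secreting cells of kidney and inner ear, had no read in any pool, in any single sour cell or in any neuron. Atp6v1a (chromosome 16, 44085402 to 44139705), the catalytic A subunit, had 573 and 265 CPM in sour pools against 185, 215, 107 and 154 CPM in control pools, a 2.53-fold difference (edgeR adjusted p = 0.016). Its sour pools differed from each other by more than the lower of them differed from the control mean.

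Atp6v1h, a regulatory V1 subunit, had 184 and 302 CPM in sour pools against 60.4 to 109 CPM in control pools (2.96-fold, edgeR adjusted p = 0.0073). Atp6v1f, subunit F of the rotating stalk, had 166 and 228 CPM against 61.1 to 91.0 CPM (2.51-fold, edgeR adjusted p = 0.017). Both genes had groups that did not overlap, a gap whose share over all genes was not counted. The genes of subunits C, D and E (Atp6v1c1, Atp6v1d and Atp6v1e1) also had groups that did not overlap, at 1.86-, 1.79- and 1.92-fold, but none was called. Atp6v1e1 passed the p threshold (edgeR adjusted p = 0.048) with a log2 change of 0.92, under the minimum of 1. Atp6v1g1, subunit G of the stator, had 94.3 and 159 CPM in sour pools against 68.2 to 113 CPM in control pools, so its groups overlapped.

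In the membrane part, Atp6v0b (chromosome 4, 117884326 to 117887333), which encodes a proton-carrying subunit of the V0 ring, had 511 and 472 CPM in sour pools against 166, 97.1, 211 and 169 CPM in control pools. The difference of means was 3.06-fold (log2 change 1.58 ± 0.34 SE, edgeR adjusted p = 0.0026). Antisense exons of Gm12841 cover 11.8% of its exon bases, and the strand used for counting is not given in the sources used here. Atp6v0d1, which links the ring to the stalk, had 119 and 101 CPM against 26.2 to 56.1 CPM (2.78-fold, edgeR adjusted p = 0.032).

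Atp6v0a1, a paralog of the large V0 subunit a that is abundant in neurons, had 191 and 53.05 CPM in sour pools against 33.8, 20.995, 5.35 and 20.4 CPM in control pools (6.07-fold, edgeR adjusted p = 0.0066). The higher value was that of sour pool 1, which also held the myeloid marker reads. Among the reads of Atp6v0a1, Atp6v0a2 and Atp6v0a4, Atp6v0a1 made up 84.9% and 51.4% per kilobase in sour pools 1 and 2. In control pools it made up 16.6% to 35.5%. Tcirg1, a further paralog of subunit a, lies outside the rows chosen by symbol and is not in these shares. Its levels were 81.9 and 58.4 CPM in sour pools 1 and 2, and 64.0 to 115 CPM in control pools. It had no call (edgeR adjusted p = 0.56). Atp6v0a2 had 34.7 and 37.1 CPM in sour pools, inside the control range of 10.7 to 81.5 CPM.

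Atp6v0c, the main proton-carrying V0 subunit, is listed at 0 in every pool and every neuron. It had at most 4 reads in any single sour cell. A processed pseudogene, Atp6v0c-ps2, shares 305 of the 2518 stretches of 50 bases in the longest Atp6v0c transcript. All other genes together share 12.2% of these stretches, and Atp6v0c-ps2 was itself listed at 0 throughout. The cause of the 0 was not tested, and the value is treated as uncertain as a level of this gene.

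**Figure D1:**
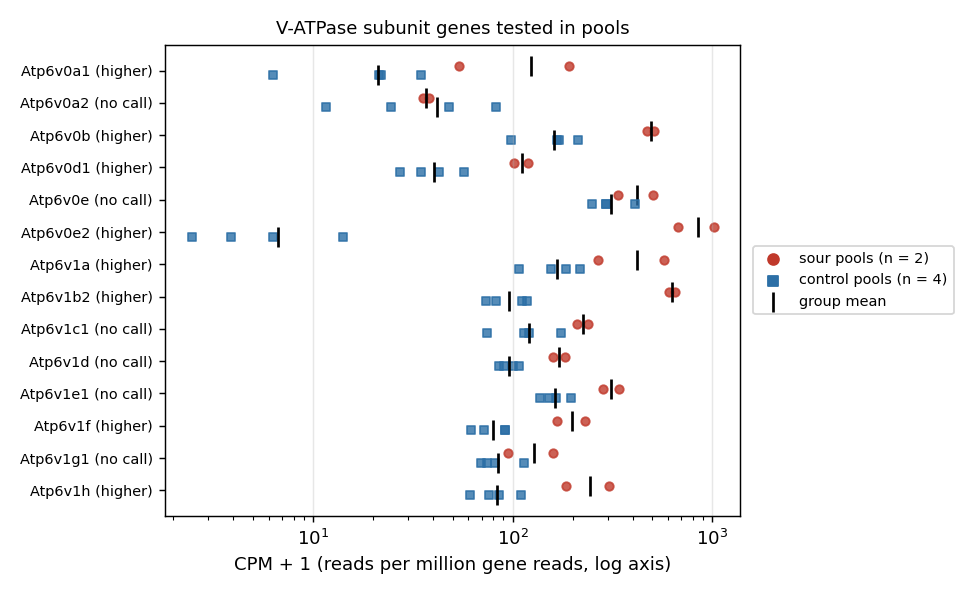
CPM + 1 on a log axis for the 14 V-ATPase genes tested, with 1 point per pool (sour, n = 2, circles; control, n = 4, squares) and a bar at each group mean. Atp6v0e2 shows the widest gap, from at most 13.1 CPM in control pools to at least 675 CPM in sour pools, whereas the groups of Atp6v0a2, Atp6v0e and Atp6v1g1 overlap.

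Several pump calls were lost without a sour pool, which leaves 1 sour library that is assumed to vary like the control pools. Without sour pool 1, Atp6v0b, Atp6v0e2, Atp6v1b2 and Atp6v1h were still called higher, and no other member was. The log2 change of Atp6v0a1 then moved from 2.55 to 1.29 (edgeR adjusted p = 0.43) and that of Atp6v1a from 1.32 to 0.61 (edgeR adjusted p = 0.45). Atp6v0d1 and Atp6v1f kept changes of 1.28 and 1.46, near their values with all pools (1.45 and 1.28), but lost their calls (edgeR adjusted p = 0.23 and 0.055). Without sour pool 2 the log2 changes were 1.09 for Atp6v1h, 1.02 for Atp6v1f and 1.53 for Atp6v0d1 (edgeR adjusted p = 0.15, 0.18 and 0.091). Atp6v0d1 also lost its call without control pool 1, 2 or 6 (edgeR adjusted p = 0.082, 0.057 and 0.067). Atp6v1c1 was called without control pool 4 (log2 change 1.09, edgeR adjusted p = 0.029) and with plate as a covariate (log2 change 1.05, edgeR adjusted p = 0.038), and Atp6v1e1 without control pool 6 (log2 change 1.04, edgeR adjusted p = 0.042). All 13 members called higher had every sour pool above every control pool. The share of all genes with such a gap was not counted, and the gap is bound up with the call, so it is no separate support. The same direction within plate 1 and within plate 3, where sour and control pools shared a plate, follows from that gap and is no separate test.

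Among bicarbonate transporters, Slc4a7 and Slc4a11 moved in opposite directions. Slc4a7 (chromosome 14, 14702279 to 14799940) encodes a sodium-bicarbonate cotransporter. It had 124 and 90.2 CPM in sour pools against 1.47, 5.25, 0 and 26.2 CPM in control pools, a 13.02-fold difference of means (log2 change 3.77, edgeR adjusted p = 0.0045). The change was 3.43 without sour pool 1 (edgeR adjusted p = 0.072) and 5.47 without control pool 6 (edgeR adjusted p = 0.00056), and within plate 3, which holds that control pool, it was 3.45-fold. Slc4a11 (chromosome 2, 130684113 to 130697519), whose product conducts protons or hydroxide and is known from corneal endothelium, had no read in either sour pool. Its control pools held 41.1, 52.5, 66.8 and 58.2 CPM, so that it was at least 10.8-fold lower in sour pools, against a floor of 3 reads over the group (edgeR adjusted p = 0.00085). Slc4a2, an anion exchanger, overlapped between groups at 52.7 ± 7.94 and 59.3 ± 22.6 CPM.

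Sodium-proton exchangers of internal membranes were among the genes that rose. Slc9a8, an exchanger of the Golgi, had 57.05 and 84.9 CPM in sour pools against 8.81, 26.2, 8.02 and 5.82 CPM in control pools (5.81-fold, edgeR adjusted p = 0.015). Slc9a9, an endosomal exchanger, had 76.9 and 26.5 CPM against 7.34, 7.87, 2.67 and 17.5 CPM (5.85-fold, edgeR adjusted p = 0.024). Its higher value was that of sour pool 1, which also held the myeloid marker reads. Within plate 3 the difference was 1.52-fold, on 5 sour and 6 control reads. The scaffold gene Slc9a3r2 had 64.5 and 53.05 CPM against 5.87, 5.25, 10.7 and 5.82 CPM (8.51-fold, edgeR adjusted p = 0.0042). In all 3 genes every sour pool lay above every control pool.

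These calls rested on few reads. Without sour pool 1 the log2 changes stayed near those with all pools (2.71 against 2.47 for Slc9a8, 2.82 against 3.03 for Slc9a3r2), with edgeR adjusted p = 0.070 and 0.19. For Slc9a8 the log2 change was 2.15 without sour pool 2 (edgeR adjusted p = 0.16) and 3.12 without control pool 2 (edgeR adjusted p = 0.0062). Slc9a9 had too few reads to test without sour pool 1, control pool 1 or control pool 2, and lost its call with DESeq2 (adjusted p = 0.066) and with plate as an edgeR covariate (adjusted p = 0.057). The scaffold gene Slc9a3r1 was at 62.01 and 84.9 CPM in sour pools, below all control pools (88.2 to 120 CPM), and had no call (edgeR adjusted p = 0.35).

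Slc9a2, a plasma membrane exchanger known from stomach and gut epithelium, had too few reads to pass the filter on low counts. Its 2 sour pools held 69.5 and 21.2 CPM, and all 4 control pools held none. The difference was at least 26.9-fold against the floor of 3 control reads. Slc9a2 was called higher in 2 alternatives that do not apply that filter. They were DESeq2 (log2 change 6.70, adjusted p = 0.00057) and edgeR with no filter on low counts (adjusted p = 3.1e-06). It also passed the edgeR filter without sour pool 2, where the only sour library left is sour pool 1, with 28 of its 32 reads. It was not tested without sour pool 1. These alternatives take the gene in through its sour reads alone, so they are no separate support.

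Monocarboxylate carriers split by member. Slc16a6, known in zebrafish as an exporter of ketone bodies from liver, had 42.2 and 58.4 CPM in sour pools against 7.34, 5.25, 5.35 and 14.5 CPM in control pools (6.19-fold, edgeR adjusted p = 0.017, 0.18 without sour pool 1, 0.22 without sour pool 2 and 0.052 with plate as a covariate). Exons of other genes, mainly Amz2 on the opposite strand, cover 23.5% of its exon bases, so part of its reads may belong to Amz2. Slc16a10, an aromatic amino acid carrier, had no sour read against 14.7, 28.9, 32.1 and 2.91 CPM in control pools. It was at least 3.87-fold lower in sour pools (edgeR adjusted p = 0.027, 0.26 without sour pool 1, 0.14 without sour pool 2 and 0.078 with plate as a covariate), and had too few reads to test without control pool 2 or 4.

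Slc16a1, the lactate carrier MCT1, had 9.92 and 0 CPM in sour pools and 49.9, 60.4, 5.35 and 81.5 CPM in control pools. Its groups overlapped through control pool 4, and it had no call (edgeR adjusted p = 0.058, and 0.0045 without control pool 4). It was also called lower with plate as a covariate (edgeR adjusted p = 0.0081) and with no filter on low counts (edgeR adjusted p = 0.0067). Slc16a12, a carrier of creatine and related molecules, had 84.3 CPM in sour pool 1 and no read in any other pool. Slc16a9 had no sour read and 42.6, 18.4, 16.0 and 0 CPM in control pools. Slc16a3, Slc16a11 and Slc16a13 overlapped between groups.

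The only Slc26a gene tested was Slc26a2, a sulfate transporter on chromosome 18 (61192919 to 61211612). It had 1 read in each sour pool (2.48 and 5.31 CPM) against 44.1, 91.9, 72.2 and 46.5 CPM in control pools. The groups were well apart (edgeR adjusted p = 0.0023), and no fold is given because 2 reads do not fix one. The Slc26a rows together summed to 28.9 ± 25.8 CPM in sour pools (n = 2) and 88.5 ± 28.02 CPM in control pools (n = 4).

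**Figure D2:**
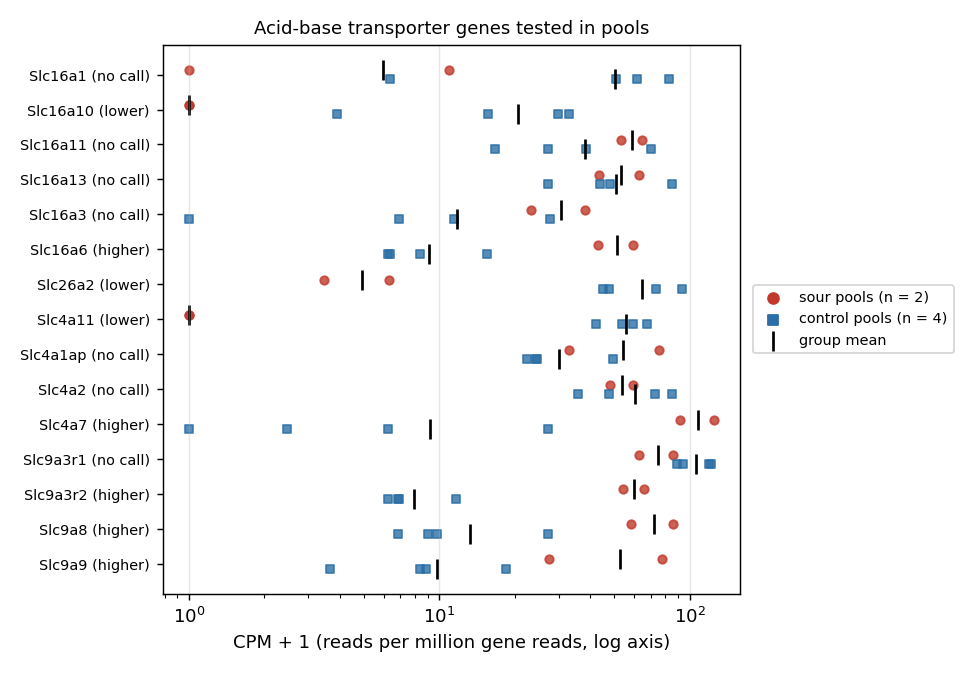
CPM + 1 on a log axis for 15 of the 17 transporter genes tested, with 1 point per pool (sour, n = 2, circles; control, n = 4, squares) and a bar at each group mean; a point at 1 is a pool with no read. Slc4a11 and Slc16a10 sit at 1 in both sour pools, and Slc4a7, Slc9a3r2, Slc9a8 and Slc16a6 lie to the right of every control pool.

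Partners of these proteins were read from lists of related genes. Of 15 V-ATPase accessory and assembly genes, a list that also holds the subunit a gene Tcirg1, 8 were tested, 4 rose and none fell. Their median log2 change was 1.38. The share of 4 of 8 is 50%, beside 15.0% of all genes tested. Atp6ap1, an accessory subunit of the pump, had 851 and 902 CPM in sour pools against 185 to 355 CPM in control pools (edgeR adjusted p = 0.0006). Dmxl2 and Rogdi, which encode subunits of the complex that assembles V1 onto V0, had means of 38.2 against 0.734 CPM and 190 against 19.3 CPM (edgeR adjusted p = 0.0017 and 0.00015). Of 7 tested partners of the transporters, 1 rose, Nptn, a membrane partner of monocarboxylate carriers (415 ± 103 against 66.0 ± 11.1 CPM). That is 14.3% of the list, near the 15.0% of all genes, and the list median log2 change was 0.0005.

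Of 7 tested genes among other proton, bicarbonate and chloride-proton carriers and pumps, 2 rose (28.6%, beside 15.0% of all genes) and none fell (beside 14.4%). Atp4a, the catalytic subunit of the stomach proton pump, had 27.3 and 79.6 CPM in sour pools, with none of its reads in a control pool (edgeR adjusted p = 0.00085). Atp4b, of the same pump and also on the list, had no read in any pool. Slc36a1, a lysosomal proton-coupled amino acid carrier, had 49.6 and 37.1 CPM against 0 to 8.02 CPM (edgeR adjusted p = 0.0058). None of 5 tested lactate and pyruvate genes was called, with a median log2 change of -0.40. Ldha, which interconverts lactate and pyruvate, had 823 and 1422 CPM in sour pools against 1777 to 2572 CPM in control pools. It passed the p threshold (edgeR adjusted p = 0.044) with a log2 change of -0.99, just short of the 2-fold minimum.

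Single cells showed which members the sour cells and the neurons have in common. The 52 sour cells with at least 1000 genes had a median of 475249 gene reads, and the 371 neurons with at least 2000 genes had a median of 1091184. The 371 were kept from 454 cells in 8 experiments. Pkd2l1 was read in 98.1% of sour cells and in 1.08% of neurons. P2rx3, an ATP receptor of taste neurons whose reporter marked the picked cells, was read in every neuron and in 3.85% of sour cells.

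Reads of other cell types were present in both sets. Krt4, a keratin of surface epithelium, was read in 94.2% of sour cells and 1.08% of neurons. Mbp, a myelin gene, was read in 70.4% of neurons and 21.2% of sour cells. Of the 11 myeloid markers, Cd74 was read in 9.62% and Ctss in 3.85% of single sour cells, and the others, Lyz2, Csf1r and the C1q genes among them, in none. The chemistries also differ, since the sour cells were read along transcripts and the neurons at their 3′ ends.

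Among the members, 13 were read in at least 50% of the single sour cells and 16 in at least 50% of the neurons, and 12 met both. The background over 23392 genes present in both tables was 12.3% for sour cells, 18.2% for neurons and 8.48% for both. All 12 shared members encode pump subunits, namely Atp6v0a1, Atp6v0b, Atp6v0d1, Atp6v0e2, Atp6v1a, Atp6v1b2, Atp6v1c1, Atp6v1d, Atp6v1e1, Atp6v1f, Atp6v1g1 and Atp6v1h. With every cell thinned to 200000 reads, which left 52 sour cells and 332 neurons, the counts were again 13, 16 and 12.

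Within the sour cells, shares of the 13 widely read pump genes ran from 73.1% (Atp6v1h) to 98.1% (Atp6v0e). A sour cell had reads of 4 to 13 of them, with a median of 12, and 21 of the 52 cells had all 13. Atp6v1b2 had a median of 579 CPM over the sour cells, Atp6v1a 586 CPM and Atp6v1e1 475 CPM. In these cells Cd74 and Ctss were the only myeloid markers read, and the keratinocyte marker Krt4 was read in 94.2%. The part of other cell types in the pump reads was not tested.

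In neurons the same 2 catalytic-ring genes stood highest. Atp6v1b2 had 1436, 1970 and 2478 CPM (lowest, median and highest of the 8 experiments), and Atp6v1a had 1003, 1426 and 1834 CPM. Atp6v1a was read in all 371 neurons and Atp6v1b2 in 369 of them. The other widely read pump genes had medians over experiments from 92.9 CPM (Atp6v1g1) to 408 CPM (Atp6v1g2). Levels of different genes here are 3′ reads with no length scaling.

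**Figure D3:**
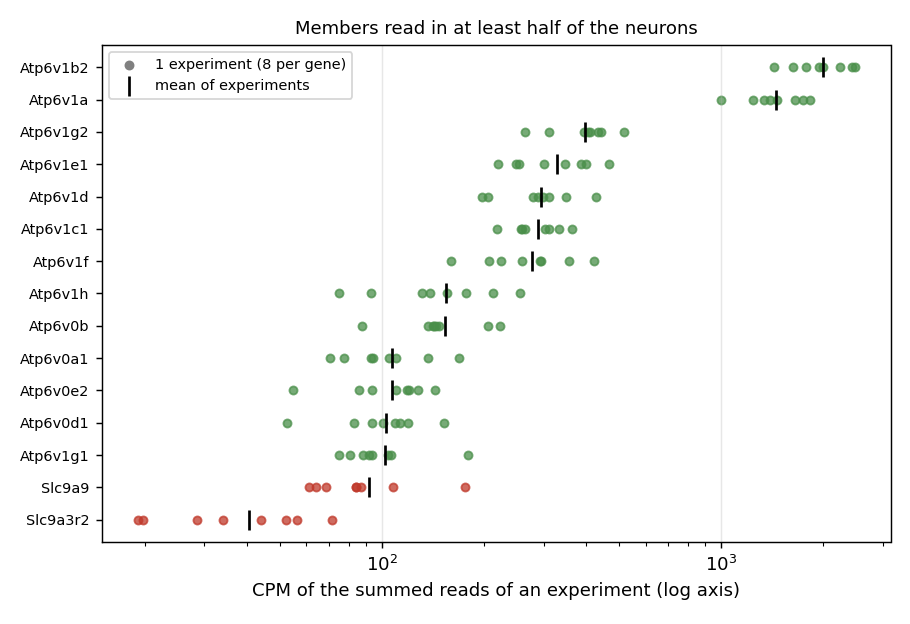
CPM of the reads summed over the neurons of an experiment, on a log axis, for 15 of the 16 members read in at least 50% of neurons (8 points per gene, 1 per experiment; the bar is their mean). Atp6v1b2 and Atp6v1a lie above 1000 CPM in every experiment, and Slc9a9 and Slc9a3r2 lie at the foot, from 19.1 to 176 CPM.

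Paralog choice separated the cells where the subunit list did not. Atp6v1g2, a brain paralog of stator subunit G, was read in 359 of 371 neurons (96.8%, exact 95% interval 94.4% to 98.3%) and in 1 of 52 sour cells (1.92%, 0.0487% to 10.3%). Its paralog Atp6v1g1 was read in 92.3% of sour cells and 78.4% of neurons. Atp6v1g2 made up 71.1% to 84.7% of subunit G reads over the 8 experiments, and none of them in any pool.

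For subunit e, Atp6v0e was read in 98.1% of sour cells (exact 95% interval 89.7% to 100.0%) and in 40.2% of neurons (35.1% to 45.3%). Atp6v0e2 was read in 82.7% of sour cells and 83.3% of neurons, and made up 74.4% to 97.9% of subunit e reads over the experiments. In single sour cells both paralogs were read in 43 of 52 cells, Atp6v0e alone in 8, Atp6v0e2 alone in 0 and neither in 1. The Atp6v0e2 level per kilobase exceeded that of Atp6v0e in 24 of 52 cells, with a mean share of 41.97% over the 51 cells that had reads.

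That mean share lies below the 75.9% of both sour pools. The 9 sour cells without an Atp6v0e2 read had a median of 1760 genes, against 4538 in the 43 with one, while their median reads were 441837 and 475772. The part of cell quality in the difference was not tested. Among the reads of Atp6v0a1, Atp6v0a2 and Atp6v0a4, Atp6v0a1 made up a mean of 83.6% per kilobase in 41 single sour cells. Over the neuron experiments it made up 88.0% to 100%. Tcirg1 is not in these shares. Subunits B, C, d and E were read almost wholly from Atp6v1b2, Atp6v1c1, Atp6v0d1 and Atp6v1e1 in every set, with each at 94.2% or more of its family.

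**Figure D4:**
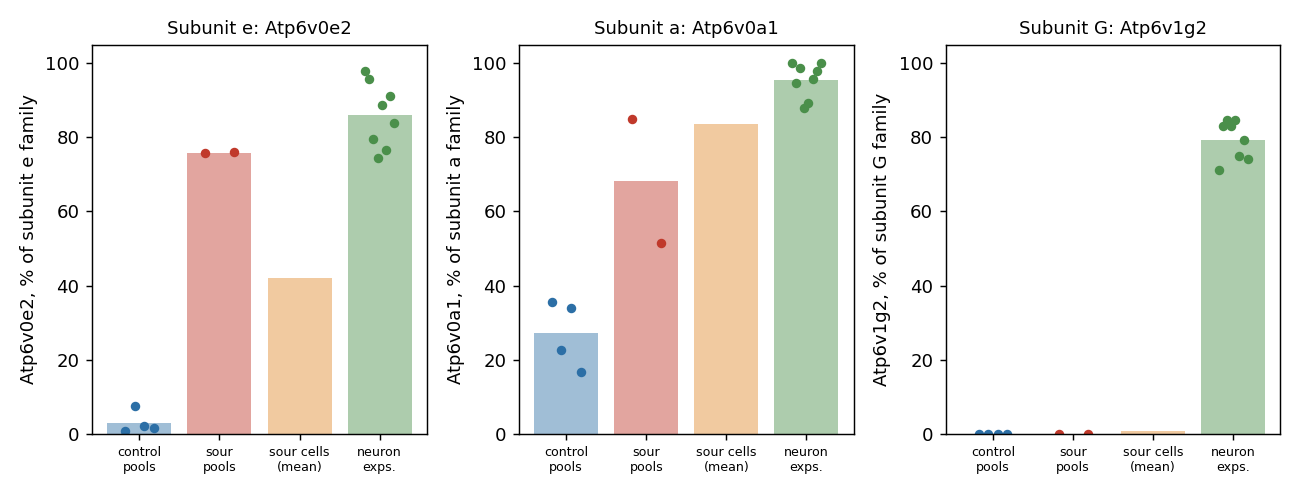
Share of the subunit e, a and G families taken by Atp6v0e2, Atp6v0a1 and Atp6v1g2 (percent), with 1 point per control pool (n = 4), sour pool (n = 2) and neuron experiment (n = 8), bars at the means, and the mean over single sour cells as a bar alone. Shares are per kilobase of exon in tongue libraries and of 3′ reads in neurons. The subunit a family here is Atp6v0a1, Atp6v0a2 and Atp6v0a4, without Tcirg1. Atp6v0e2 is at most 7.58% in control pools and 75.9% in sour pools, and Atp6v1g2 is high in neurons only.

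No transporter was widely read in sour cells. Over 46 transporter rows, the highest share was 46.2% (Slc4a7, 24 of 52 cells, exact 95% interval 32.2% to 60.5%). Slc16a12 followed in 32.7% of sour cells (20.3% to 47.1%) and 1.08% of neurons, although only 1 sour pool held its reads. Slc16a6 was read in 28.8% of sour cells and 5.12% of neurons, Slc16a11 in 26.9% and 2.43%, and Slc9a2 in 19.2% and 0.809%. The intervals cover counting within 1 sample of each kind of cell, and the kinds differ in chemistry and depth. No test between them was made. Thinning left Slc4a7 at 44.2% and 14.5%.

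Transporters of the Slc9a family were the most widely read in neurons. Slc9a9 was read in 67.7% of neurons and 23.1% of sour cells, and the scaffold gene Slc9a3r2 in 60.4% and 21.2%. Slc9a9 ranged from 46.8% to 97.0% of neurons over the 8 experiments, and Slc9a3r2 from 40.5% to 87.9%. Thinned to 200000 reads, the neuron shares were 56.3% and 50.6%. Slc9a9 and Slc9a3r2 thus rose in sour against control pools, and were read in a smaller share of sour cells than of neurons.

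Other sodium-coupled bicarbonate transporters were read in a larger share of neurons than of sour cells. Slc4a4, an electrogenic cotransporter also known from glia, was read in 43.9% of neurons and 5.77% of sour cells. Slc4a8, a sodium-driven chloride-bicarbonate exchanger of neurons, was read in 40.2% and 3.85%, and its relative Slc4a10 in 13.2% of neurons and no sour cell. None of the 3 had a read in any pool. The brain exchanger Slc9a5 was read in 35.6% of neurons and 1.92% of sour cells. Neuron shares of these genes varied between experiments, for Slc4a4 from 21.4% to 82.4%.

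Glial reads accompany these neuron values. Over the 371 neurons, Spearman correlations of the 34 most widely read members with the summed glial markers lay between -0.19 and 0.20, and with read depth between 0.05 and 0.28, values that come from cells sharing libraries.

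Members with no read were also counted. In single sour cells 20 of 69 had none; 3 of 52 cells is a share of 5.77%, and the exact interval for 0 of 52 reaches 6.85%. Among them were Slc26a3, Slc26a4, Slc26a5 and Slc26a7, as well as Atp6v0d2, Slc4a1 and Slc9a3. In neurons Atp6v1b1, Atp6v1g3, Slc16a5, Slc26a9 and Slc9a4 had none; 3 of 371 cells is a share of 0.809%, and the exact interval for 0 of 371 reaches 0.989%. These limits concern cells with a read, not cells that express the gene. Atp6v0c and Atp6v0c-ps2, also without a read in neurons, get no limit because their counts are uncertain.

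**Figure D5:**
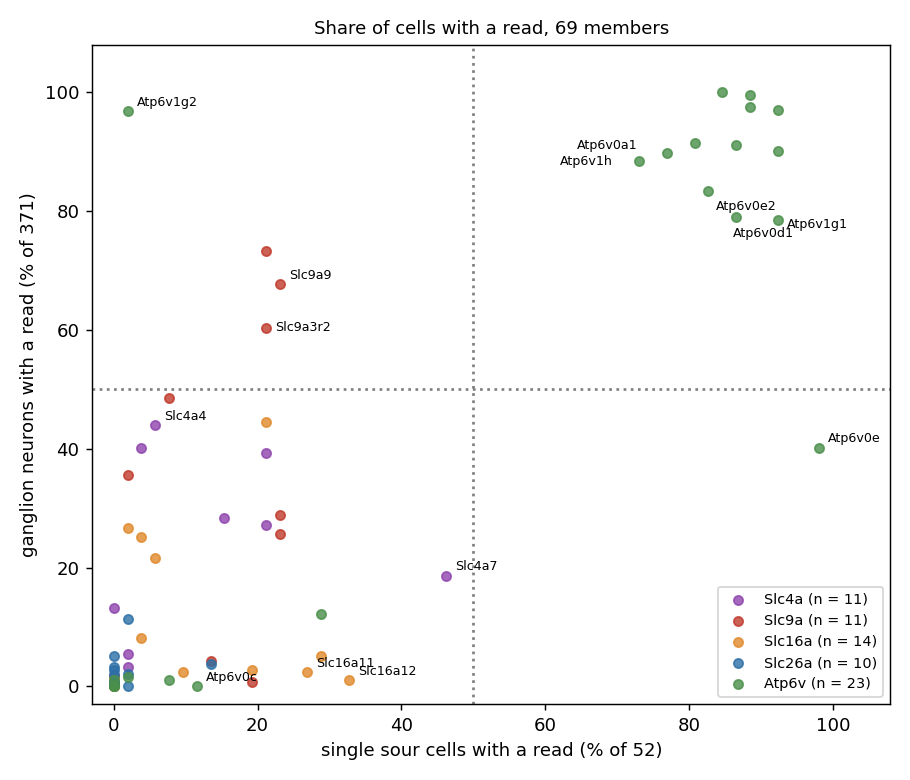
Percent of 52 single sour cells (horizontal) and of 371 ganglion neurons (vertical) with at least 1 read, 1 point per member coloured by family, with dotted lines at 50%. The 12 shared members at the upper right are all V-ATPase genes, Atp6v1g2 lies at the upper left, Atp6v0e at the lower right, and all Slc26a rows lie near the origin.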

How the data were processed

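Each table holds raw read counts per gene, deposited by the authors as whole numbers with no normalization. Per the submitters' processing notes, STAR aligned and HTSeq counted the reads, on build GRCm38; versions and strand are not given in the sources used here. Tongue cDNA was made with the SMART-Seq Ultra Low Input chemistry and ganglion cDNA with CEL-Seq, per the labels' protocols; counts are reads, not molecules, so intervals and floors cover counting error only. Date-altered symbols, reporters, spike-ins and HTSeq summary lines were left out; the last took 32.4% of taste reads. The labels list 12 pools and 6 are analysed here.

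CPM are reads per 1000000 gene reads. Pools were fitted with edgeR 4.0.16 in R 4.3.3 over 7739 genes, with Benjamini-Hochberg adjustment. The fit used the quasi-likelihood test, TMM and a filter for low counts by group. It was also run on simulated counts of independent pools. That run cannot show how the fit behaves if the pools are technical replicates. DESeq2 1.42.0 was an alternative. A gene was called at an adjusted p under 0.05 and an absolute log2 change of at least 1. A floor of 3 reads is 5.07 CPM over the sour pools and 1.69 CPM over the control pools. Shares of cells have exact (Clopper-Pearson) 95% intervals and no test, as all cells of a kind form 1 sample; no doublet caller was run on these sorted or hand-picked cells, and all 40 CEL-Seq barcode numbers recur among the 17 ganglion libraries. Gene positions and exon lengths came from GENCODE M21, promoters from RefSeq. Other exons or shared 50-base stretches could move reads of Slc16a6, Slc16a9, Slc4a2, Atp6v0a2, Atp6v0b, Atp6v1f and Atp6v1g1, among others.

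Members and gene lists were chosen with earlier results of these data known. Named were called members, the 10 highest by pool CPM and by share in each cell kind, pump subunits with paralogs, and members in only 1 kind of pool or cell; other members were named for completeness after their values were seen. Alternatives were another scaling, another tool, no filter, plate, leaving out each pool or experiment, and other cell thresholds. Some members and marker genes stay in the fits and counts and are not reported here by name.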

Additional observations from a re-analysis of the deposited data

Results flagged for a closer look

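Among the control pools, 3 of 31 tested members had a pool far from the other 3, and among the ganglion experiments 2 of 16 widely read members had such an experiment. A chance rate of about 1 flag in 20 groups was assumed and not computed from these counts. Slc4a1ap had 48.5 CPM in control pool 1 against 21.4 to 23.6 CPM in the others. Slc9a3r2 had 10.7 CPM in control pool 4, on 4 reads, and Slc9a8 had 26.2 CPM in control pool 2, on 10 reads; both values lay under those of every sour pool. In neurons, Atp6v1g1 had 179.8 CPM in experiment JC04, the experiment with the fewest neurons (17), and Slc9a9 had 176.1 CPM in experiment JC07.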

How the results depend on the processing

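Of the pool calls, Atp6v0b, Atp6v0e2, Atp6v1b2, Slc4a11 and Slc26a2 held under all 10 alternatives. Leaving out a pool in turn gave 4 to 14 members higher and 2 to 3 lower, with the lowest count, 4 higher, without sour pool 1, when the median log2 change over every gene tested was -0.26. With no filter on low counts 5 members were lower. Atp6v0d1 kept its call in 3 of 10 alternatives, and Slc16a10 in 4 of the 8 that tested it. Of the members without a call that are reported here, 2 changed sign: Atp6v0a2 had log2 changes of -0.52 to 0.35 over the fits without a pool (highest without control pool 6), and Slc16a13 had -0.30 (without sour pool 1) to 0.42, with -0.13 without control pool 6 and -0.0148 with no filter. The cause was not tested. With a threshold of 25% of cells in place of 50%, 29 members counted as widely read in neurons. The count in neurons was 16 to 17 when an experiment was left out, and the other alternatives gave 13 to 20 in neurons, 12 to 18 in sour cells and 11 to 13 in both. The 2 scalings put the median log2 change of all genes at -0.01 (TMM) and 0.02 (DESeq2 size factors). At this depth 18 members had reads in pools but too few to test. Pools share no replicate numbers, but share plates; with plate as a covariate 12 members were higher and 3 lower.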
